A study of Bos taurus with 6 samples.

Results

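The genes described here encode the machinery that moves cargo between the endoplasmic reticulum (ER), the Golgi apparatus and the plasma membrane. They were chosen by gene symbol, as 12 genes of the COPII coat and its assembly, 3 SEC22 genes and 9 COPI coat subunits. The others were 5 ARF GTPases, 3 KDEL receptors and 8 subunits of the exocyst. All 40 had a row among the 23475 genes with values, and all 40 passed the filter on low values, which kept the 12422 genes whose mean over the 6 libraries was 0.5 FPKM or more. The RNA came from cultured cells of bovine subcutaneous fat that had received either bta-miR-484 agomir (3 libraries) or agomir NC (3 libraries) 48 h earlier. Agomirs are modified duplex RNAs used to supply a cell with extra copies of a chosen miRNA, and agomir NC stands for the negative control. The comparison asks which transcripts differ when this miRNA is in excess. The fat was taken from calves, and whether the libraries of a group derive from different animals is not stated, so the p-values below measure only the spread between these samples, which may be technical.

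COPII vesicles carry newly made proteins out of the ER. The GTPase SAR1 is activated at the ER by PREB and recruits the inner coat of SEC23 and SEC24, where SEC24 binds the cargo, and the outer cage of SEC13 and SEC31 then shapes the bud. COPI vesicles, which form on the Golgi when ARF GTPases recruit the coatomer, return escaped ER proteins and recycle Golgi enzymes, and the exocyst tethers vesicles from the Golgi and from endosomes to the plasma membrane before they fuse. Cells of fat tissue use these routes to secrete collagen and other matrix proteins and, in adipocytes, the exocyst takes part in the delivery of the insulin-responsive glucose transporter to the cell surface.

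The deposited labels and the sequencing step of the study's methods call the cells adipocytes, while the isolation step uses both adipocytes and preadipocytes. In its results the paper states that preadipocytes received the agomirs for the proliferation and differentiation assays. Of 12 markers of preadipocytes and mesenchymal cells, COL1A1 was the most abundant, at a mean of 5979 FPKM (fragments scaled by transcript length and by the mapped total of the library), and PDGFRA was at 165 ± 1.90 FPKM under the agomir, against 167 ± 5.09 FPKM under agomir NC (SD, n = 3 each). The preadipocyte marker DLK1 was listed at 0 in all 6 libraries, and CD34 lay between 0.383 and 0.783 FPKM. The summed level of these markers was 21309, 22222 and 21264 FPKM after the agomir and 21057, 22128 and 21968 FPKM after agomir NC. Among 10 adipocyte markers the most abundant was LPL, at a mean of 3.73 FPKM over the 6 libraries, but PPARG was above LPL in agomir replicates 1 and 3. ADIPOQ did not exceed 0.197 FPKM and LEP did not exceed 0.0368 FPKM in any library, and PLIN4 and CIDEC were also near 0. Leukocyte (PTPRC), epithelial (KRT18, EPCAM) and skeletal muscle (MYOD1, MYOG) markers were also at or near 0, as were PECAM1 and KDR of endothelium, although VWF had a mean of 3.39 FPKM and CD14 a mean of 6.27 FPKM. Of the pericyte and smooth muscle markers, ACTA2 was high, at a mean of 207 FPKM, and CNN1 lay between 11.4 and 17.3 FPKM, while RGS5 and MYH11 were at or near 0. In bulk RNA, fewer cells of a type and less RNA per cell cannot be told apart. The sum of all FPKM values was lowest in agomir NC replicate 2, at 365977, and highest in agomir NC replicate 3, at 379361, and the depth in reads is unknown.

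None of the 40 transport genes passed an adjusted p of 0.05 in limma, against 0.00805% of all genes tested, which is the single gene TRAPPC4. That gene is outside these families but encodes a subunit of TRAPP, a vesicle tethering complex, and is named here after its values were seen. At an unadjusted p under 0.05 in limma, 2 of the 40, SEC24A and EXOC5, were higher with the agomir, where 6.63% of all genes tested were higher, and 0 of the 40 were lower, where 4.31% of all genes tested were lower. Among the 5515 genes at a mean of 10 FPKM or more, a level that 35 of the 40 reached, these shares were 8.07% and 4.9%. TRAPPC4 was past the adjusted threshold without agomir NC replicate 3 but not when any other library was left out. The genes lower at the unadjusted p were COPZ2 and ARF5 without agomir replicate 1, ARF3 without agomir replicate 2, SEC23B without agomir replicate 3, ARF5 without agomir NC replicate 1, SEC23B and COPZ2 without agomir NC replicate 2, and SEC23B, COPZ2 and ARF4 with median-ratio scaling. SEC24A was the only gene higher without agomir replicate 3 and without agomir NC replicate 2, and without agomir replicate 2 the genes higher were SEC24A and PREB. In 6 of the 40 genes (SEC16A, SEC24A, SEC24B, SEC24C, EXOC5 and EXOC6) the agomir group lay wholly above the agomir NC group, against 10.9% of all genes tested, and in 4 (SEC23B, COPE, ARF4 and KDELR2) wholly below it, against 6.36%. The log2 fold change, agomir over agomir NC on the log2(FPKM + 0.5) scale, was positive in 21 genes and negative in 19. Of all genes tested, 55.1% had a positive log2 fold change. Over the 40 genes the log2 fold change ran from -0.15 for ARF5 to 0.30 for EXOC6. The balance was 16 positive to 24 negative with median-ratio scaling and without agomir replicate 2, and 19 to 21 without agomir NC replicate 2. Its median was 0.0055 over the 40 genes and 0.013 over all genes tested, and these medians were -0.011 and -0.0020 with median-ratio scaling. The median over the 40 genes was also negative without agomir replicate 2 (-0.014) and without agomir NC replicate 2 (-0.0076), and it was 0.0099 without agomir replicate 1, 0.023 without agomir NC replicate 1 and 0.0023 without agomir NC replicate 3. The median of its size was 0.044 over the 40 genes, 0.075 over all genes tested and 0.061 over the 5515 genes at 10 FPKM or more. The 95% interval of the log2 fold change included 0 in 38 of the 40 genes. With an exact two-sided permutation test, 3 libraries against 3 cannot go below p = 0.1, which is the value for each gene whose groups did not overlap.

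Summed over the 40 genes, the level was 2083, 2121 and 2074 FPKM after the agomir and 2148, 2067 and 2148 FPKM after agomir NC. The groups overlapped, since agomir NC replicate 2 had the lowest sum of the 6 libraries and the other agomir NC libraries had the highest. The coefficient of variation over the 6 libraries had a median of 4.68% among the 40 genes, beside 5.65% among the 5515 genes at a mean of 10 FPKM or more. Means over the 6 libraries ran from 0.623 FPKM for EXOC6 to 204 FPKM for ARF4.

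**Figure D1:**
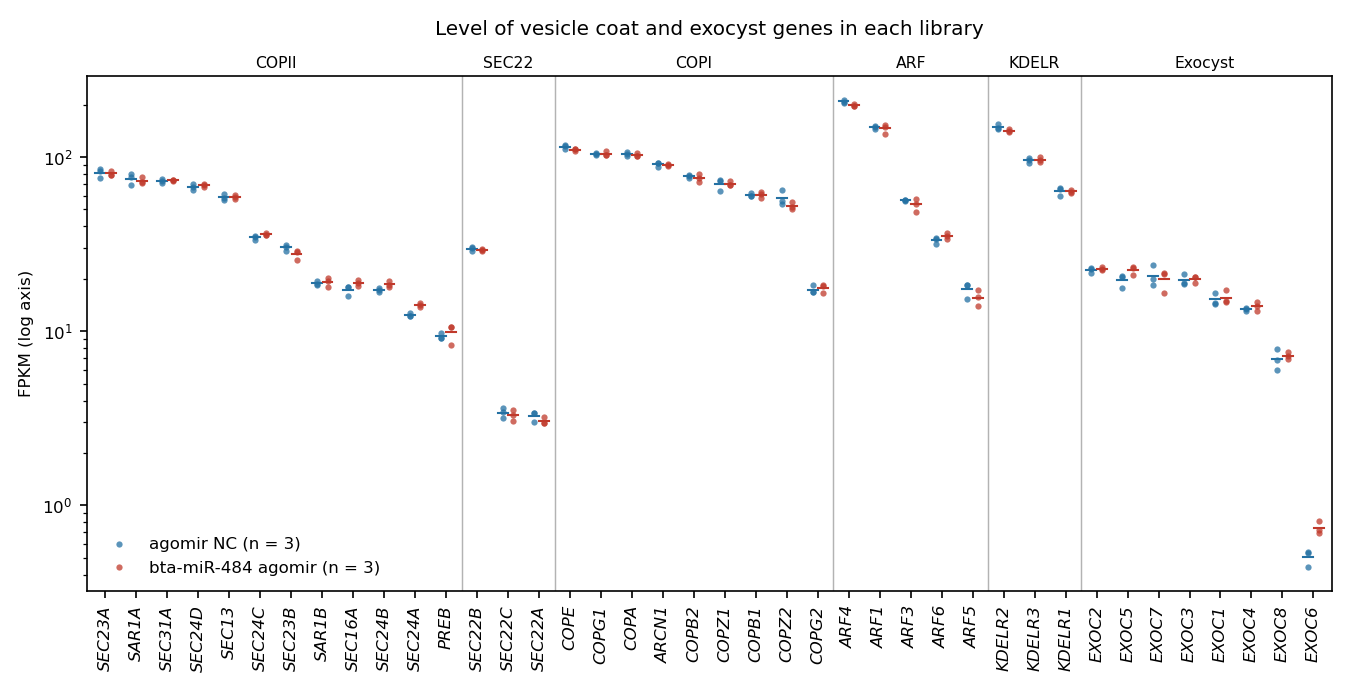
FPKM of the 40 transport genes in each library on a log axis, ordered by level within each family, with 3 agomir NC libraries in blue, 3 agomir libraries in red and the group means as short lines. ARF4 lies near 204 FPKM and EXOC6 at 0.623 FPKM, and within most genes the points of both groups overlap.

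In the COPII coat, the largest level was that of SEC23A, the more abundant SEC23 of the inner coat, at a mean of 81.0 FPKM over the 6 libraries. SAR1A (74.1 FPKM) and SEC31A (73.2 FPKM) followed and could not be ranked, since SAR1A was the higher of the pair in 3 of the 6 libraries. SEC24D (67.8 FPKM), the cargo adaptor needed for export of bulky cargo such as procollagen, came next, and SEC13 of the outer cage was at 58.9 FPKM. The lowest was PREB, the exchange factor that loads SAR1 with GTP, at 10.5, 8.37 and 10.6 FPKM under the agomir, against 9.76, 9.11 and 9.17 FPKM under agomir NC. Its agomir replicate 2 was the lowest of all, and the groups overlapped. For PREB the log2 fold change was 0.065 with all libraries, and without agomir replicate 2 it was 0.17 and under an unadjusted p of 0.05 in limma. It came to 0.015 and 0.0084 when agomir replicate 1 or 3 was omitted. Of the 11 pairs of neighbors in this order of levels, 4 had ranges over the 6 libraries that overlapped.

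SEC24A, a cargo adaptor of the inner coat, was at 13.7, 14.1 and 14.5 FPKM after the agomir and 12.6, 12.3 and 12.2 FPKM after agomir NC. Every agomir library lay above every agomir NC library. Its log2 fold change was 0.18 (standard error 0.056, limma's Benjamini-Hochberg adjusted p = 0.333), a fold change with a 95% interval from 1.04 to 1.24, and it was under an unadjusted p of 0.05 in limma in all 14 other settings tried. SEC24B, the paralogue closest to it, was at 18.3, 19.4 and 18.1 FPKM under the agomir, against 17.8, 16.9 and 17.2 FPKM under agomir NC. The groups did not overlap, and its log2 fold change was 0.10 (limma's adjusted p = 0.532).

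SEC24C showed a smaller difference, with 35.9, 36.6 and 35.6 FPKM after the agomir and 35.1, 34.9 and 33.6 FPKM after agomir NC. Its groups did not overlap either, but agomir replicate 3 and agomir NC replicate 1 were close to each other. For SEC24D the values were 67.3, 69.9 and 69.1 FPKM under the agomir, against 69.6, 64.3 and 66.9 FPKM under agomir NC, and these overlapped. The 4 SEC24 genes together summed to 137 ± 2.38 FPKM under the agomir, against 131 ± 3.51 FPKM under agomir NC (SD, n = 3 each), and agomir NC replicate 1 was only just below agomir replicate 1.

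SEC16A, the large scaffold that marks ER exit sites, was at 18.9, 19.6 and 18.1 FPKM after the agomir and 17.9, 18.0 and 15.9 FPKM after agomir NC. The gap between the groups was narrow, with agomir replicate 3 just above agomir NC replicate 2, and agomir NC replicate 3 was the lowest. The log2 fold change was 0.12 (limma's adjusted p = 0.530) with all libraries and 0.067 without agomir NC replicate 3.

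SEC23B, the less abundant SEC23, lay on the other side, at 28.7, 25.5 and 28.8 FPKM under the agomir, against 30.6, 29.1 and 31.2 FPKM under agomir NC. All agomir libraries were below all agomir NC libraries, and agomir replicate 2 was the lowest. Its log2 fold change was -0.13 (standard error 0.060, limma's adjusted p = 0.467) with all libraries and -0.075 without agomir replicate 2. Its paralogue SEC23A was at 78.8, 83.6 and 79.4 FPKM under the agomir, against 85.7, 75.3 and 83.0 FPKM under agomir NC, where agomir NC replicates 1 and 2 were the highest and the lowest of the 6 libraries. The GTPases that start the coat did not separate the groups. SAR1A was at 76.3, 71.2 and 71.5 FPKM under the agomir, against 76.8, 68.7 and 80.2 FPKM under agomir NC, and SAR1B, which is known for its part in the export of lipoprotein particles, was at 17.9, 20.2 and 19.6 FPKM and at 19.4, 18.5 and 18.7 FPKM. The groups overlapped in both genes.

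Of the SEC22 proteins, SEC22B is a SNARE, one of the proteins that bring membranes together for fusion, and acts between the ER and the Golgi. SEC22B was at 29.4, 29.0 and 29.8 FPKM after the agomir and 30.5, 28.9 and 29.9 FPKM after agomir NC. The groups overlapped within a narrow range. SEC22C and SEC22A were far lower, at means of 3.35 and 3.17 FPKM over the 6 libraries, and although their ranges overlapped, SEC22C was the higher in each of the 6 libraries. For SEC22A the values were 3.23, 2.98 and 2.99 FPKM under the agomir, against 3.02, 3.39 and 3.40 FPKM under agomir NC, with agomir replicate 1 above agomir NC replicate 1.

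The COPI coat, or coatomer, is recruited to the membrane as a whole, with COPA, COPB2 and COPE in its outer part and COPB1, ARCN1, a gamma subunit (COPG1 or COPG2) and a zeta subunit (COPZ1 or COPZ2) in its adaptor part. The gamma and zeta positions, each summed over its paralogues, had means of 122 and 126 FPKM over the 6 libraries, beside 112 FPKM for COPE, 104 FPKM for COPA, 90.6 FPKM for ARCN1, 76.6 FPKM for COPB2 and 60.7 FPKM for COPB1. The spread of levels between the positions stayed within a ratio to COPA of 0.586 to 1.21. Summed over its 9 genes the coat was at 679, 694 and 680 FPKM under the agomir, against 709, 674 and 711 FPKM under agomir NC. The groups overlapped, with agomir NC replicate 2 the lowest of the 6 libraries and the other agomir NC libraries the highest.

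COPE, the epsilon subunit and the highest of the 9 by mean, was at 111, 108 and 112 FPKM after the agomir and 117, 112 and 115 FPKM after agomir NC. All agomir libraries lay below the agomir NC libraries, but agomir replicate 3 was only just below agomir NC replicate 2. The log2 fold change was -0.062 (limma's adjusted p = 0.610). COPG1, which was above COPE in agomir replicate 2, was at 102, 109 and 103 FPKM under the agomir, against 105, 103 and 104 FPKM under agomir NC. Its paralogue COPG2, the lowest of the coat, was at 18.3, 18.1 and 16.5 FPKM and at 18.3, 16.8 and 16.8 FPKM, and in both genes the groups overlapped.

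For COPZ2 the values were 55.5, 51.6 and 50.4 FPKM under the agomir, against 55.9, 53.9 and 65.0 FPKM under agomir NC. Agomir NC replicate 3 stood above the other 5 libraries, which overlapped between the groups, and the log2 fold change was -0.15 (standard error 0.071, limma's adjusted p = 0.502) with all libraries and -0.065 without agomir NC replicate 3. Its paralogue COPZ1 was at 72.5, 69.0 and 68.8 FPKM under the agomir, against 72.8, 64.0 and 74.2 FPKM under agomir NC, with the agomir NC libraries at both ends of the range. The COPI genes COPA, COPB1, COPB2 and ARCN1 also overlapped between the groups, with log2 fold changes between -0.029 for COPB2 and 0.0053 for COPB1.

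ARF GTPases recruit coats and adaptors to membranes, ARF1, ARF3, ARF4 and ARF5 mainly on the Golgi and ARF6 at the plasma membrane. ARF4 was the most abundant of the 40 genes, at 202, 196 and 197 FPKM after the agomir and 214, 205 and 208 FPKM after agomir NC. All 3 agomir libraries were below the lowest agomir NC library. The log2 fold change was -0.076 (standard error 0.037, limma's adjusted p = 0.503). ARF1, which recruits the coatomer, was at 149, 153 and 136 FPKM under the agomir, against 149, 144 and 150 FPKM under agomir NC, and agomir replicate 3 was the lowest value while agomir replicate 2 was the highest.

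The same library, agomir replicate 3, was also the lowest for ARF3, at 54.1, 57.6 and 48.7 FPKM under the agomir, against 57.1, 56.8 and 55.8 FPKM under agomir NC. For ARF3 the log2 fold change was -0.084 with all libraries, -0.019 without this library and -0.14 without agomir replicate 2. ARF5, the lowest of the 5, was at 17.2, 14.0 and 15.7 FPKM and at 15.4, 18.5 and 18.4 FPKM, where agomir NC replicate 1 lay among the agomir libraries. For ARF5 the log2 fold change, -0.15 with all libraries, was -0.076 without agomir replicate 2 and -0.24 without agomir NC replicate 1. ARF6 was at 35.1, 33.9 and 36.6 FPKM under the agomir, against 33.9, 31.7 and 34.4 FPKM under agomir NC, and its groups overlapped. The levels kept the order ARF4, ARF1, ARF3, ARF6, ARF5 in all 6 libraries, with no overlap between neighbors.

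KDEL receptors bind ER proteins that have reached the Golgi and return them in COPI vesicles. KDELR2, the most abundant, was at 139, 145 and 142 FPKM after the agomir and 145, 146 and 155 FPKM after agomir NC. The groups did not overlap, though agomir replicate 2 was only just below agomir NC replicate 1. The log2 fold change was -0.069 (limma's adjusted p = 0.590) with all libraries and -0.040 without agomir NC replicate 3. KDELR1, the lowest of the 3 receptors, was at 63.3, 64.9 and 62.3 FPKM under the agomir, against 59.6, 65.5 and 66.9 FPKM under agomir NC, so the agomir libraries lay inside the range of the agomir NC libraries. KDELR3, in between at a mean of 96.3 FPKM, also overlapped.

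The exocyst genes had a median level of 17.6 FPKM, beside 32.1 FPKM for the COPII and 76.6 FPKM for the COPI genes, and 7 of them had means between 7.09 FPKM for EXOC8 and 22.6 FPKM for EXOC2 over the 6 libraries. EXOC2, which binds the GTPase RALA, was at 22.5, 23.4 and 22.6 FPKM under the agomir, against 22.6, 21.6 and 23.0 FPKM under agomir NC. Its groups overlapped. EXOC2, EXOC5, EXOC7 and EXOC3 followed each other in level with ranges that overlapped between neighbors.

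EXOC5, a core subunit of the complex, was at 21.0, 23.3 and 23.2 FPKM after the agomir and 20.7, 17.7 and 20.4 FPKM after agomir NC. Every agomir library was above every agomir NC library, but agomir replicate 1 was close to agomir NC replicate 1 and agomir NC replicate 2 was the lowest. Its log2 fold change was 0.19 (standard error 0.072, limma's Benjamini-Hochberg adjusted p = 0.393), with a 95% interval of the fold change from 1.02 to 1.28. The unadjusted p in limma was above 0.05 without agomir replicate 2, without agomir replicate 3 and without agomir NC replicate 2, where the log2 fold change was 0.17, 0.17 and 0.12.

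EXOC6 had the largest log2 fold change of the 40 genes and the lowest level. It was at 0.719, 0.692 and 0.810 FPKM under the agomir, against 0.542, 0.532 and 0.442 FPKM under agomir NC, so that the groups did not overlap and all values lay close to the filter of 0.5 FPKM. The log2 fold change was 0.30 (standard error 0.14, limma's adjusted p = 0.471). Its 95% interval, as a fold change in FPKM + 0.5 and not in FPKM, ran from 0.992 to 1.53. At this level the value depends on the pseudocount, with a log2 fold change of 0.47 at a pseudocount of 0.1 and 0.21 at a pseudocount of 1, and the ratio of the mean FPKM values was 1.46. EXOC6 was under an unadjusted p of 0.05 in limma with no filter, with quantile normalization and with no variance trend. EXOC6B, the paralogue that can take the same place in the complex, was 19.8 times as abundant, at 12.5, 12.1 and 12.5 FPKM under the agomir, against 12.7, 12.3 and 11.7 FPKM under agomir NC. Those values overlapped, as did the sum of EXOC6 and EXOC6B, at 13.2, 12.8 and 13.3 FPKM under the agomir, against 13.2, 12.8 and 12.2 FPKM under agomir NC. Only agomir NC replicate 3 lay below the range of the agomir libraries in this sum. EXOC7, which binds lipids of the plasma membrane, was the most variable exocyst gene above 10 FPKM, at 16.7, 21.3 and 21.6 FPKM under the agomir, against 24.1, 19.8 and 18.4 FPKM under agomir NC. Its groups overlapped, and EXOC1, EXOC3, EXOC4 and EXOC8 overlapped as well.

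**Figure D2:**
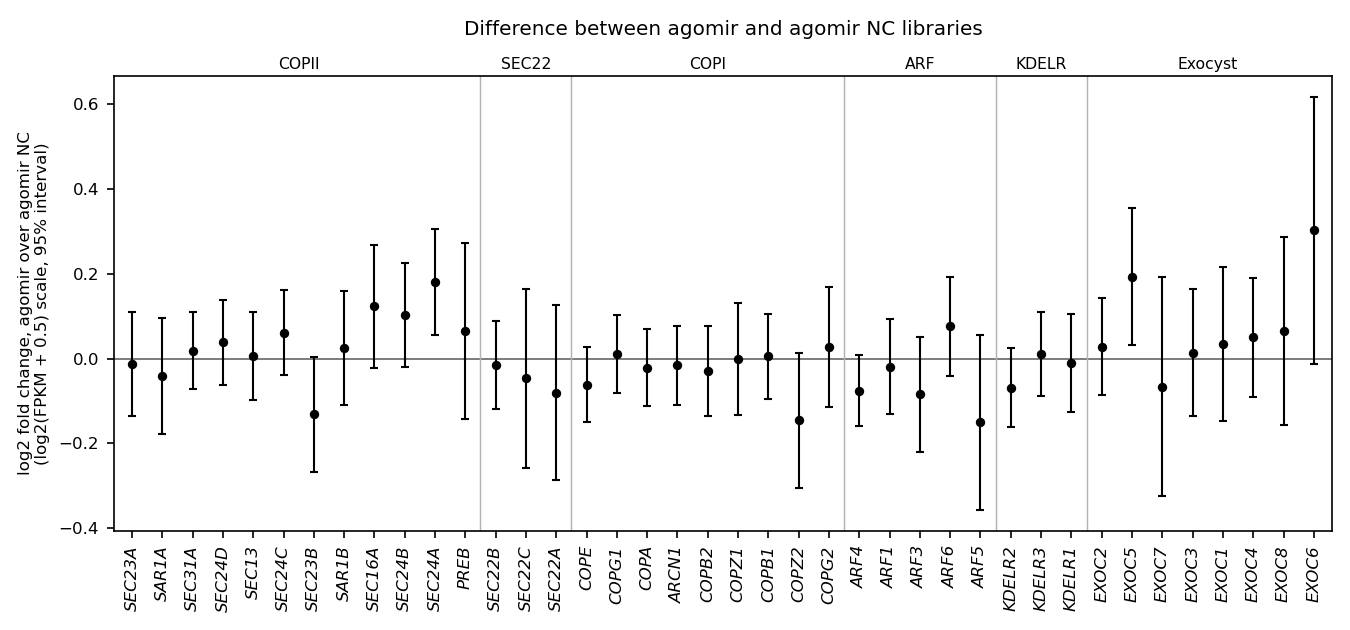
Log2 fold change of each of the 40 genes, agomir over agomir NC on the log2(FPKM + 0.5) scale, with the 95% interval from limma (n = 3 libraries each), in the same order as the plot of levels. The interval lies above 0 for SEC24A and EXOC5 and includes 0 for the other 38 genes.

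By family, the median log2 fold change was 0.032 for the COPII genes, -0.046 for the SEC22 genes, -0.016 for the COPI genes, -0.076 for the ARF genes, -0.0098 for the KDEL receptors and 0.042 for the exocyst genes, and the sign was the same with median-ratio scaling and with quantile normalization except for the KDEL receptors, at 0.00038 with the latter. No family was tested as a group, and single libraries moved each median by over 1.5 times. The COPII median was 0.014 without agomir replicate 3, 0.057 and 0.016 when agomir NC replicate 1 or 2 was omitted, and 0.016 with median-ratio scaling. That of the SEC22 genes was -0.024 without agomir replicate 3 and -0.089 without agomir NC replicate 1. For COPI it was -0.0047 without agomir replicate 1, -0.0029, -0.041 and -0.0034 without agomir NC replicates 1, 2 and 3, -0.032 with median-ratio scaling and -0.0067 with quantile normalization. The ARF median was -0.019 without agomir replicate 3. The median of the KDEL receptors was positive without agomir replicate 3 (0.0036), without agomir NC replicate 2 (0.0080) and without agomir NC replicate 3 (0.023), and was -0.026 without agomir replicate 2, -0.060 without agomir NC replicate 1 and -0.026 with median-ratio scaling. The exocyst median was 0.011 without agomir replicate 2, 0.027 without agomir NC replicate 3, 0.026 with median-ratio scaling and 0.017 with quantile normalization. Among single genes, the sign turned with at least 1 of these scalings for SEC13, COPB1, COPG1, COPZ1, ARF1, KDELR1, KDELR3 and EXOC3.

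Because FPKM is per length, the share of each paralogue in the summed FPKM of its family can be compared, and a share does not depend on the scaling between libraries. SEC24D made up 50.0 ± 0.313% of the SEC24 sum with the agomir and 51.0 ± 0.832% with the agomir NC, which overlapped, ahead of SEC24C, SEC24B and SEC24A in every library. SEC24A had 10.2%, 10.1% and 10.6% in the agomir libraries and 9.36%, 9.59% and 9.40% in the agomir NC libraries, which did not overlap (exact permutation p = 0.1, Benjamini-Hochberg adjusted 0.38 over 19 shares). SEC24A and SEC24B together, a pair chosen after its values were seen, had 23.7%, 23.9% and 23.7% against 22.5%, 22.7% and 22.7%.

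SEC23A took 73.3%, 76.6% and 73.4% of the SEC23 sum with the agomir and 73.7%, 72.2% and 72.7% with the agomir NC, and SAR1A took between 77.9% and 81.1% of the SAR1 sum in the 6 libraries. Both overlapped between the groups. COPZ1 had 56.7%, 57.2% and 57.7% of the COPZ sum with the agomir and 56.6%, 54.3% and 53.3% with the agomir NC, where agomir NC replicate 1 was only just below the agomir libraries. COPG1 had between 84.8% and 86.2% of the COPG sum, and SEC22B between 80.5% and 83.2% of the SEC22 sum.

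Among the KDEL receptors, KDELR2 had 46.9%, 46.8% and 47.2% of the sum in the agomir libraries and 48.9%, 47.4% and 48.3% in the agomir NC libraries, and KDELR3 had 31.7%, 32.3% and 32.1% against 31.0%, 31.4% and 30.9%. Neither overlapped between the groups, and since the shares of a family add up, they are not independent of each other. ARF6 made up 7.65%, 7.46% and 8.43% of the ARF sum with the agomir and 7.22%, 6.95% and 7.37% with the agomir NC, also without overlap. Its difference in share, 0.668 percentage points with all libraries, was 0.376 without agomir replicate 3, the highest library. Each of these shares had an exact permutation p of 0.1, and none of the 19 shares had a Benjamini-Hochberg adjusted value below 0.38.

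**Figure D3:**
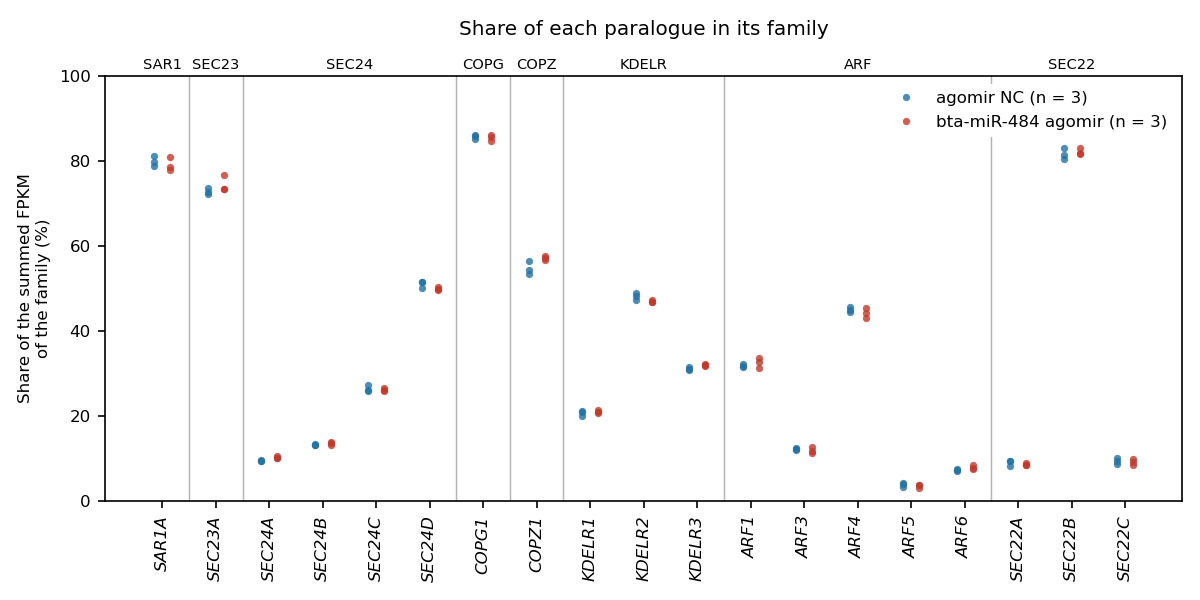
Share of each paralogue in the summed FPKM of its family, in percent, with 3 agomir NC libraries in blue and 3 agomir libraries in red, and with only the first gene shown for families of 2. SEC24D holds the largest share of the SEC24 sum in both groups, at 50.0% and 51.0%.

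Of 79 other genes of these routes, 75 passed the filter on low values and SEC16B, EXOC3L1, EXOC3L2 and EXOC3L4 did not. None passed an adjusted p of 0.05 in limma, but the 79 include no TRAPP gene, so TRAPPC4 was not among them. At an unadjusted p under 0.05, 11 of the 75 were higher with the agomir, 14.7% beside the 6.63% of all genes tested, and 0 were lower, beside 4.31%. Of the 75, 62 had a mean of 10 FPKM or more, among them 10 of the 11, and at that level 8.07% of all genes were higher and 4.9% lower. The 11 were 4 of 21 ARF and SAR regulators, 3 of 23 genes of ER exit and cargo binding, 2 of 19 SNAREs and tethers between the ER and the Golgi and 2 of 12 exocyst partners and paralogues, each to be read beside the same 6.63%. The median log2 fold change of the 75 was 0.018, beside 0.013 for all genes tested, and was 0.0017 with median-ratio scaling, 0.0063 without agomir replicate 2, and 0.029 and 0.033 when agomir NC replicate 1 or 3 was omitted. The count of 0 lower became 2 without agomir replicate 1, with median-ratio scaling and with no filter, and 1 without agomir NC replicate 3 and with quantile normalization. The count of 11 went down to 6 without agomir replicate 1 and without agomir replicate 2, and to 7 without agomir replicate 3 and without agomir NC replicate 2. With all libraries kept, it was 8 with no variance trend, 9 with median-ratio scaling and 10 with quantile normalization. It was also 10 with the replicate block, and 12 with no filter.

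The ARF and SAR regulators among the 11 were ARFGEF1, an exchange factor for ARF GTPases at the Golgi, GIT2, a GTPase-activating protein for ARFs, and GGA1 and GGA3, adaptors that ARFs recruit to the trans-Golgi. GIT2 was at 13.5, 12.8 and 12.9 FPKM after the agomir and 10.7, 12.2 and 11.0 FPKM after agomir NC, and GGA3 was at 11.3, 11.1 and 12.1 FPKM against 10.5, 9.96 and 9.63 FPKM. Neither overlapped between the groups, and limma's adjusted p was 0.354 for GIT2 and 0.361 for GGA3.

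Those of ER exit were TMED5, a cargo receptor of the p24 family, CNIH4, a cornichon cargo receptor, and MCFD2, the partner of LMAN1 in the export of clotting factors. MCFD2 was at 29.0, 30.2 and 28.2 FPKM under the agomir, against 24.0, 25.6 and 27.6 FPKM under agomir NC. Its groups did not overlap, and its partner LMAN1 overlapped, at 66.3 ± 3.45 and 63.7 ± 4.10 FPKM (SD, n = 3 each). CNIH4 overlapped as well, as agomir replicate 2 (65.9 FPKM) was just below agomir NC replicate 3 (66.0 FPKM). Among the SNAREs and tethers these were BNIP1 and NBAS, which work together in the tethering of COPI vesicles at the ER, with log2 fold changes of 0.32 and 0.16. BNIP1, the largest log2 fold change of the 11, was at 12.1, 10.9 and 9.85 FPKM under the agomir, against 10.0, 7.75 and 8.41 FPKM under agomir NC, and its groups overlapped. Among the exocyst partners and paralogues they were VAMP3 and VAMP8, SNAREs of endosomes, with log2 fold changes of 0.20 and 0.19. Limma's adjusted p lay between 0.350 and 0.442 for all 11 genes.

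Some markers of the cells were also under an unadjusted p of 0.05 in limma, though none passed the adjusted threshold. NT5E, a mesenchymal surface marker, was at 71.7, 70.6 and 77.5 FPKM under the agomir, against 83.1, 89.2 and 89.4 FPKM under agomir NC, without overlap and with limma's adjusted p = 0.209. With DCN, it made 2 of the 10 mesenchymal markers tested that were lower with the agomir at the unadjusted p, beside 4.31% of all genes tested, and 0 of the 10 were higher, beside 6.63%. Among the adipocyte markers, FABP4 was lower and PPARG higher at that threshold. FABP4 was at 1.82, 2.33 and 1.54 FPKM under the agomir, against 3.57, 2.21 and 2.88 FPKM under agomir NC. The FABP4 groups overlapped, while those of PPARG did not. Limma's adjusted p was 0.363 for FABP4 and 0.407 for PPARG. The part of all these markers in the values of SEC24A, EXOC5 and the other transport genes was not tested.

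Paralogues with similar sequence, such as SAR1A and SAR1B or ARF1 and ARF3, can share reads, and how the deposited values divide such reads is not given in the sources used here, so levels and shares within these families are uncertain. In RefSeq's gene table for ARS-UCD2.0 all 40 symbols matched, and the span of 14 of the 40 genes overlaps that of another gene, as for SEC23B with DTD1, SEC24C with FUT11, SEC24D with SYNPO2, PREB with ABHD1, COPG2 with MEST and KDELR3 with DDX17. SEC24A, EXOC5, EXOC6 and ARF4 overlap no other gene there.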

How the data were processed

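The deposited table gives each gene 1 FPKM estimate in every library, and the submitters' processing notes name fastp, HISAT2, StringTie and the build ARS-UCD1.2, with roles and versions not given. Ratios of low genes between libraries showed no steps of whole reads (no more than 7 of 2156 genes in any log2 bin of 0.002), and depth is therefore unknown. Genes were kept at a mean of 0.5 FPKM or more, and a pseudocount of 0.5 was added before the log2, a scale that understates the fold change of low genes. The groups were compared with limma 3.58.1 in R 4.3.3 (linear model, moderated test with variance trend, two-sided, no term for replicate number), with Benjamini-Hochberg adjustment over all 12422 genes tested. Single genes and shares were compared by the exact permutation test over the 20 labelings. Shares and permutations used Python 3.11.15 and scipy 1.17.1.

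Members and lists were chosen with earlier results of these data known. All 40 genes were named, with values in every library for those under an unadjusted p of 0.05 or with groups that did not overlap, for the highest and lowest of each family and for paralogues that share a place in a coat. From the other lists, genes under an unadjusted p of 0.05 were named. Other genes were named after their values were seen. Alternatives were no variance trend, the replicate number as a block, omission of each library, quantile normalization, median-ratio scaling, a filter at 1 FPKM or none, and a pseudocount of 0.1 or 1. Promoter motifs and sequences were not analysed here.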

Additional observations from a re-analysis of the deposited data

How the results depend on the processing

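In all 14 other settings, 0 of the transport genes tested passed an adjusted p of 0.05 in limma, and SEC24A was under an unadjusted p of 0.05. The genes tested were all 40, except with the filter at 1 FPKM, which removed EXOC6 and left 39. Of 559 log2 fold changes of single genes under these settings, 513 kept their sign and 46, in 19 of the 40 genes, did not. The filters, the variance trend and the replicate block leave a log2 fold change as it is, so the 513 include values that could not turn. All 46 turns came with median-ratio scaling, quantile normalization or a library left out. Of 133 differences in share, 125 kept their sign. The 125 include those with median-ratio scaling, which could not turn because a share does not depend on the scaling. All turns in share came with a library left out. The count of all genes past the adjusted p was 0 with no filter (1604 genes under an unadjusted p of 0.05), 0 with no variance trend (1249) and 0 with the replicate block (1260), and ran from 0 to 2 with each library left out, being 0 without agomir replicate 1 (1223) and without agomir NC replicate 2 (1191). Same-numbered libraries did not deviate together (correlations across genes of -0.051, 0.053 and 0.039), so the numbers are not taken as pairs. The replicate block gave 2 transport genes higher at the unadjusted p and 1 lower, SEC23B. Transport genes lower at that threshold were 1 with no filter (ARF4), 3 with median-ratio scaling (SEC23B, COPZ2 and ARF4), 1 with quantile normalization (COPZ2) and 0 to 2 with each library left out, and those higher were 1 to 2 with each library left out (without agomir replicate 2, SEC24A and PREB) and 3 with no filter, with quantile normalization and with no variance trend, where EXOC6 joined SEC24A and EXOC5. For the other pathway genes, a result whose settings were applied after seeing the data, those lower were 2 with no filter, 2 with median-ratio scaling, 1 with quantile normalization and 0 to 2 with each library left out, and those higher were 6 to 9 with each library left out. The balance of signs and the medians of the families and of the other pathway genes were also put through the settings after seeing the data. Fewer libraries or another number of genes tested enter some of these counts, and otherwise the cause was not tested.

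With median-ratio scaling the log2 fold change turned to -0.011 for SEC13, -0.011 for COPB1, -0.0061 for COPG1, -0.0057 for KDELR3 and -0.0018 for EXOC3. With quantile normalization it turned to -0.0021 for SEC13, 0.0068 for COPZ1, 0.0040 for ARF1, 0.00038 for KDELR1 and -0.016 for EXOC3. When single libraries were left out it ran from -0.021 to 0.037 for SEC13, from -0.066 to 0.027 for SEC23A, from -0.00095 to 0.036 for SEC31A, from -0.10 to 0.0066 for SAR1A, from -0.011 to 0.074 for SAR1B, from -0.035 to 0.0028 for SEC22B, from -0.092 to 0.00021 for SEC22C, from -0.017 to 0.036 for COPB1, from -0.067 to 0.0046 for COPB2, from -0.018 to 0.027 for COPG1, from -0.00085 to 0.072 for COPG2, from -0.067 to 0.039 for COPZ1, from -0.053 to 0.032 for ARF1, from -0.060 to 0.023 for KDELR1, from -0.018 to 0.033 for KDELR3, from -0.038 to 0.098 for EXOC1, from -0.020 to 0.075 for EXOC3, from -0.15 to 0.051 for EXOC7 and from -0.027 to 0.16 for EXOC8. The difference in share ran from -0.374 to 0.303 percentage points for SEC24C, from -0.454 to 0.241 for COPG1, from -0.0151 to 0.571 for KDELR1, from -0.672 to 0.0625 for ARF3 and from -0.548 to 0.172 for SEC22C. The cause of these turns was not tested. With 3 libraries a group and depth unknown, no counting error can be given, and the 95% intervals bound what differences these data could show.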
